A study of Homo sapiens with 6 samples.

Results

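The genes described here are the cyclins, cyclin-dependent kinases (CDKs) and CDK inhibitors that act in the G1 phase of the cell cycle. They were chosen by name, as 10 gene symbols. The probe annotation used holds 1 probe with that symbol alone for each of 9 of them: the D-type cyclins CCND1, CCND2 and CCND3, their kinases CDK4 and CDK6, the E-type cyclins CCNE1 and CCNE2, their kinase CDK2, and the inhibitor CDKN1B. The other listed inhibitor, CDKN2C, is paired with no probe there and is not analysed here. These 9 genes are part of 18417 genes whose RNA was measured in U373MG, an established cell line of human glioblastoma. The cells were exposed for 24 hours to ET-770 at 4.83 nM, to its pyridinecarbonyl derivative ET-770-DR at 1.70 nM or to renieramycin M (RM) at 3.10 nM. Each dose is labelled as the IC50 of its compound. In each of 3 independent experiments, 1 array of compound-treated cells stood beside 1 array of cells given DMSO, the vehicle, at an equivalent concentration, which makes 6 arrays of 1 cell line.

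D-type cyclins accumulate when growth factors reach a cell, and they activate CDK4 and CDK6. These kinases phosphorylate the retinoblastoma protein, which then releases E2F transcription factors. E2F raises the E-type cyclins, which activate CDK2, complete the phosphorylation and open S phase. CDKN1B, also called p27, binds and restrains the CDK2 complexes, and D-type complexes hold part of it. In glioblastoma this circuit is often altered in the DNA, by gain of the kinases or loss of their inhibitors.

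The promoters of 1 gene that rose and of both D-type kinases are shown because these kinases gave opposite signs below. Each is the 250 bases before the transcription start in RefSeq, on GRCh38.p14, written 5′ to 3′ on the strand of the gene. Capitals mark the GC box GGGCGG on either strand, the motif bound by SP1. CCNE1 lies at chr19:29811741-29811990 on the plus strand, CDK4 at chr12:57752311-57752560 on the minus strand and CDK6, at the start farther upstream of its 2 starts in the table, at chr7:92836574-92836823 on the minus strand.
CCNE1: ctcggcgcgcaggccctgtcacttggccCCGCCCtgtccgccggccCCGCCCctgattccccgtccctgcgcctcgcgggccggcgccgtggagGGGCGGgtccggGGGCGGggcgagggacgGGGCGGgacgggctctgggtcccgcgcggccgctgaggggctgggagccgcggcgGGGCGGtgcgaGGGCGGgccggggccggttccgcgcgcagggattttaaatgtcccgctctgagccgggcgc
CDK4: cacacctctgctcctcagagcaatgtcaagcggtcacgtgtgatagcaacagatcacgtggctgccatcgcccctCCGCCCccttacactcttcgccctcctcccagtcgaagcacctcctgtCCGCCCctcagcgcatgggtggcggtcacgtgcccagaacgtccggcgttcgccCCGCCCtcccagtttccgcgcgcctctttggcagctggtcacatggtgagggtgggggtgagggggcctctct
CDK6: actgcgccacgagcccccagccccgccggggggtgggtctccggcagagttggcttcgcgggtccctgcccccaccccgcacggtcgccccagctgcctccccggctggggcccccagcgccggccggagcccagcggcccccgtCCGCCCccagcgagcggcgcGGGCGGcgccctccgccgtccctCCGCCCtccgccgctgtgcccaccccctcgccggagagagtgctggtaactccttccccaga
The table holds promoters for 5 of the 9 genes, 8 in all, and none for CCND1, CCND2, CCNE2 and CDK2. The CCNE1 window held 7 GC boxes, and the CDK4 and CDK6 windows shown held 3 each. The window at the other CDK6 start held 0 GC boxes. At least 1 was found in 6 of the 8 windows and in 42.6% of all 35116 promoters of this length. The letters of E2F cores were searched on both strands as well, namely TTCCCGC with its variant TTCGCGC, or TTGGCGC with its variant TTGCCGC. They were found in 0 of these 8 windows and in 10.9% of all promoters, which says only that these letters are not in these windows.

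The values are signals on a log2 scale, as the authors computed them by RMA, a method that corrects background, equalises arrays and summarises the probes of a gene. The median of an array lay between 6.63 and 7.30. The sorted values of 2 arrays differed on average by 0.05 to 0.08 log2 units within an experiment and by 0.09 to 0.63 between experiments. Each compound array was set against the DMSO of its own experiment. The shared change of a gene is the mean over the 3 experiments of compound minus DMSO. It was tested in limma, with a term for the experiment (n = 3 pairs), with p-values adjusted over all 18417 genes and a threshold of 0.05. The 3 compounds stand in for replicates in that fit, and standard errors are those moderated by limma. The labels do not say that the arrays are separate cultures beyond the separate experiments, so these p-values measure the spread between these arrays. The 11 astrocyte and glioma markers checked averaged 8.87 to 9.88 on the compound arrays and 9.54 to 10.35 on the DMSO arrays. Of these, 7 fell and 0 rose, where 11.2% of all genes fell and 13.1% rose. AQP4 lay below the array median on every array. Of 10 markers of neurons, endothelium and leukocytes, SYT1 alone was called and fell. The part of these changes in the results below was not tested.

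Of the 9 measured G1 genes, 4 rose and 1 fell in the shared response (limma, adjusted p under 0.05). Of all 18417 genes, 13.1% rose and 11.2% fell. CCNE2, CCNE1, CDK2 and CCND3 rose, CDK6 fell, and CDK4, CDKN1B, CCND1 and CCND2 did not pass the test. The median shared change was 0.37 over the 9 genes and 0.03 over all genes. By sign alone, 6 of the 9 were higher than DMSO with every compound and 1 was lower with every compound, against 29.6% and 20.6% of all genes. In RNA from a whole culture, a different share of cells in a phase of the cycle and a different amount of RNA per cell cannot be told apart.

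**Figure D1:**
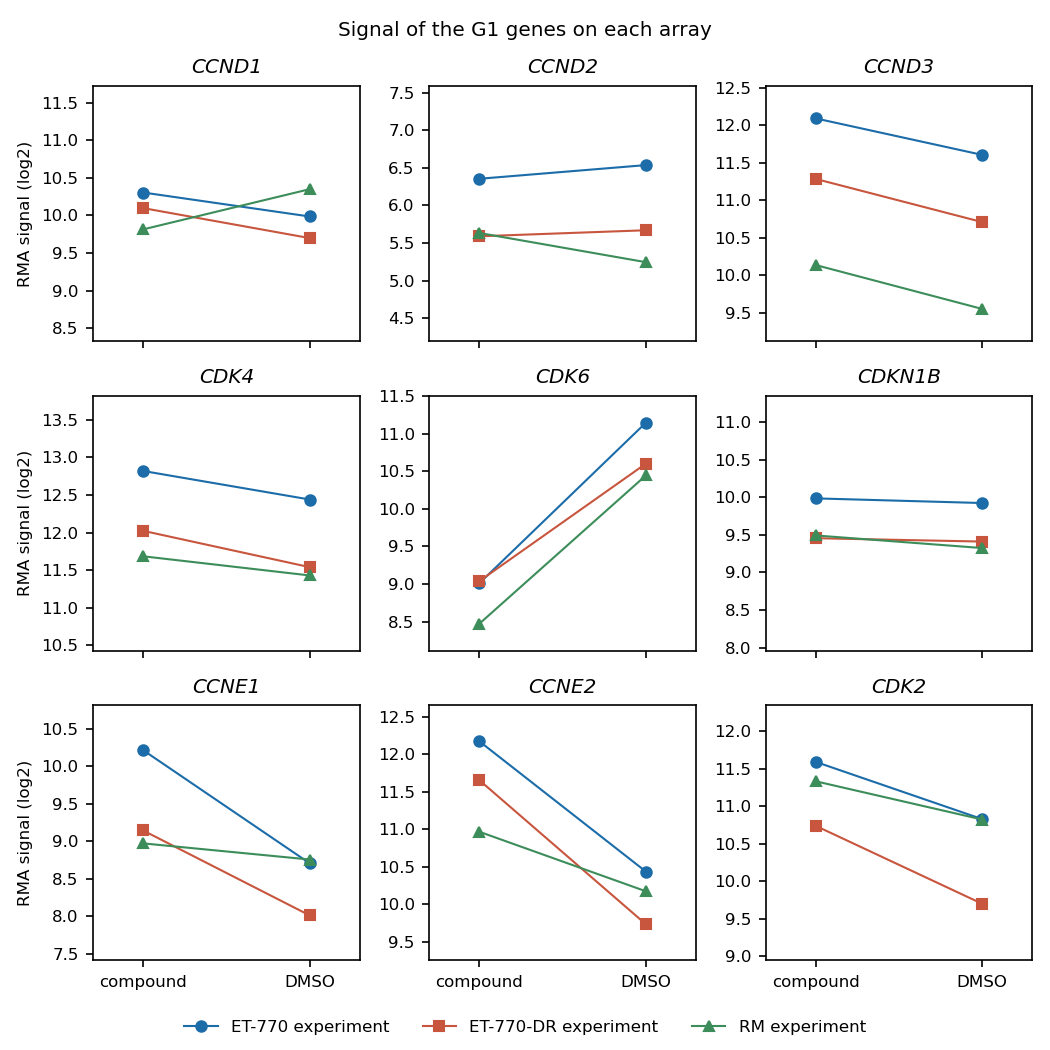
RMA signal on a log2 scale of the 9 G1 genes on the 6 arrays, with the compound array on the left and the DMSO array of the same experiment on the right of each panel. Each point is 1 array, each line joins the arrays of 1 experiment, and every panel spans 3.4 log2 units. CDK6 is lower on all compound arrays than on any DMSO array, and the E-type cyclins are higher on all compound arrays than on any DMSO array.

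CDK6, one of the kinases of the D-type cyclins, was the gene of the group that fell. Its log2 signal was 9.01 for ET-770, 9.04 for ET-770-DR and 8.47 for RM, against 11.15, 10.60 and 10.45 in the DMSO cells of the same experiments. The groups did not overlap, as was so for 8.96% of all genes in either direction. CDK6 stood at 0.227-fold under ET-770, 0.338-fold under ET-770-DR and 0.254-fold under RM. On the log2 scale it fell by 1.89 (standard error 0.14, 95% interval -2.21 to -1.57, limma adjusted p = 2.5e-05, lower in 3 of 3 pairs). Among all 18417 genes, this was the change at rank 202 from the lowest. The changes with the 3 compounds were -2.14, -1.56 and -1.97, with a standard deviation of 0.30, so the fall was several times their spread. CDK6 was the only member more than 3-fold lower, the threshold of the study, under ET-770 and under RM, and it lay just short of that under ET-770-DR. More than 3-fold lower were 2.15% of all genes for ET-770, 2.12% for ET-770-DR and 1.36% for RM. At a threshold of 2-fold it was the only member below for each compound, beside 4.68%, 4.94% and 4.28% of all genes.

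The genes whose changes lay nearest to those of CDK6, by Euclidean distance over the 3 log2 changes, were ZFAND3, DLG1 and TRIO. ZFAND3, a zinc finger protein, lay at a distance of 0.04 and was at 0.226-fold, 0.330-fold and 0.257-fold under ET-770, ET-770-DR and RM. DLG1, a scaffold protein of cell junctions, lay at 0.09, and TRIO at 0.15. Each of the 3 fell, with shared changes between -1.90 and -1.83. The distance is a description over 3 pairs of arrays.

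CDK4, the sister kinase that binds the same cyclins, did not fall. Its log2 signal was 12.82 for ET-770, 12.02 for ET-770-DR and 11.68 for RM, against 12.44, 11.54 and 11.43 in the DMSO cells of the same experiments. It was higher in 3 of 3 pairs, at 1.30-fold, 1.40-fold and 1.19-fold, while the compound and DMSO ranges overlapped across experiments. Its shared change was 0.37 (standard error 0.12, 95% interval 0.10 to 0.65, limma adjusted p = 0.054), which did not pass the threshold. Without the RM experiment the change was 0.43 (limma adjusted p = 0.013, n = 2 pairs), in a fit where 3506 of all 18417 genes rose, against 2406 in the full fit. CDK4 also passed with eBayes with trend (adjusted p = 0.0038) and without the dimmest 25% of genes (adjusted p = 0.037). CDK4 did not pass under the other 8 of 11 alternatives. Its limma adjusted p was 0.39 without the ET-770 experiment, 0.21 without the ET-770-DR experiment and 0.11 with array medians made equal. In every experiment the change of CDK4 was positive and that of CDK6 negative, and the profiles of the 2 kinases lay 3.94 log2 units apart over the 3 changes.

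The D-type cyclins differed among themselves. CCND3 had a log2 signal of 12.09 for ET-770, 11.29 for ET-770-DR and 10.14 for RM, against 11.61, 10.71 and 9.55 in the DMSO cells of the same experiments. Its compound and DMSO ranges overlapped, and the DMSO arrays alone spanned 2.05 log2 units, the widest span of the 9 genes. Within experiments the rise was almost the same each time, at 1.40-fold, 1.49-fold and 1.50-fold. The 3 changes had a standard deviation of 0.05, the smallest of the 9 genes. CCND3 rose by a shared log2 change of 0.55 (standard error 0.12, limma adjusted p = 0.0085, n = 3 pairs, higher in 3 of 3). Without the ET-770 experiment the change was 0.58 and no longer passed (limma adjusted p = 0.079, n = 2 pairs). After quantile normalization across all arrays the DMSO span of CCND3 was 1.67.

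CCND1, the D-type cyclin that growth factor signaling through ERK is best known to induce, had a log2 signal of 10.31 for ET-770, 10.10 for ET-770-DR and 9.82 for RM. The DMSO cells of the same experiments had 9.99, 9.70 and 10.35. It was higher than DMSO with ET-770 and ET-770-DR (1.25-fold and 1.32-fold) and lower with RM (0.690-fold). The shared change was 0.06 (standard error 0.18, 95% interval -0.35 to 0.47, limma adjusted p = 0.89), and -0.012 after quantile normalization. Without the RM experiment it was 0.36 and passed (limma adjusted p = 0.040, n = 2 pairs), without the ET-770 experiment -0.068 and without the ET-770-DR experiment -0.11. In the fit without RM, 3506 of all 18417 genes rose, against 2406 in the full fit. CCND2, the remaining D-type cyclin, had 6.36, 5.59 and 5.63 on the compound arrays, against 6.54, 5.67 and 5.24 on their DMSO arrays. These signals lay below the array median on all 6 arrays, and whether the probe stood above background was not tested. It stood at 0.881-fold under ET-770, 0.946-fold under ET-770-DR and 1.31-fold under RM. Its shared change was 0.04 (standard error 0.14, limma adjusted p = 0.91), -0.13 without the RM experiment and -0.010 after quantile normalization.

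CCNE2, one of the E-type cyclins, changed most among the genes that rose. Its log2 signal was 12.17 for ET-770, 11.65 for ET-770-DR and 10.97 for RM, against 10.44, 9.74 and 10.18 in the DMSO cells of the same experiments. The lowest compound array lay above the highest DMSO array. CCNE2 stood at 3.33-fold under ET-770, 3.78-fold under ET-770-DR and 1.73-fold under RM. Its shared log2 change was 1.48 (standard error 0.20, 95% interval 1.03 to 1.93, limma adjusted p = 0.00065, higher in 3 of 3 pairs), which was rank 30 from the highest of 18417 genes. It was the only member over 3-fold, for the compounds ET-770 and ET-770-DR, where 0.233% and 0.51% of all genes were, and no member was over 3-fold under RM, where 0.0434% were. Over 2-fold were 2 members for ET-770 (CCNE1 and CCNE2), 3 for ET-770-DR (these and CDK2) and 0 for RM, beside 2.01%, 3.84% and 0.668% of all genes.

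CCNE1, the other E-type cyclin, had a log2 signal of 10.21 for ET-770, 9.14 for ET-770-DR and 8.97 for RM, against 8.70, 8.01 and 8.76 in the DMSO cells of the same experiments. The groups did not overlap, but the RM array lay close to its own DMSO array. CCNE1 stood at 2.84-fold, 2.19-fold and 1.16-fold. It rose by a shared log2 change of 0.95 (standard error 0.21, 95% interval 0.47 to 1.43, limma adjusted p = 0.0097, n = 3 pairs), and its changes spread with a standard deviation of 0.66, the widest of the 9 genes. CDK2, the kinase of both E-type cyclins, had 11.59, 10.74 and 11.33 on the ET-770, ET-770-DR and RM arrays, against 10.83, 9.70 and 10.82 on their DMSO arrays. It was higher within each experiment, at 1.70-fold, 2.05-fold and 1.42-fold, while the ET-770-DR array lay below 2 of the 3 DMSO arrays. CDK2 rose by a shared change of 0.77 (standard error 0.14, limma adjusted p = 0.0030, higher in 3 of 3 pairs).

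The genes nearest to CCNE2 in their 3 changes were CLSPN, NR4A2 and TUFT1. CLSPN, the checkpoint mediator claspin of DNA replication, lay at a distance of 0.08 and was at 3.20-fold, 3.67-fold and 1.70-fold under ET-770, ET-770-DR and RM. NR4A2, an orphan nuclear receptor, lay at 0.10, and TUFT1, which encodes tuftelin, at 0.15. Among the G1 genes themselves, the closest pairs were the dim CCND2 with CDKN1B at 0.35 and CCND3 with CDK4 at 0.36, and the farthest was CDK6 with CCNE2 at 5.90.

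**Figure D2:**
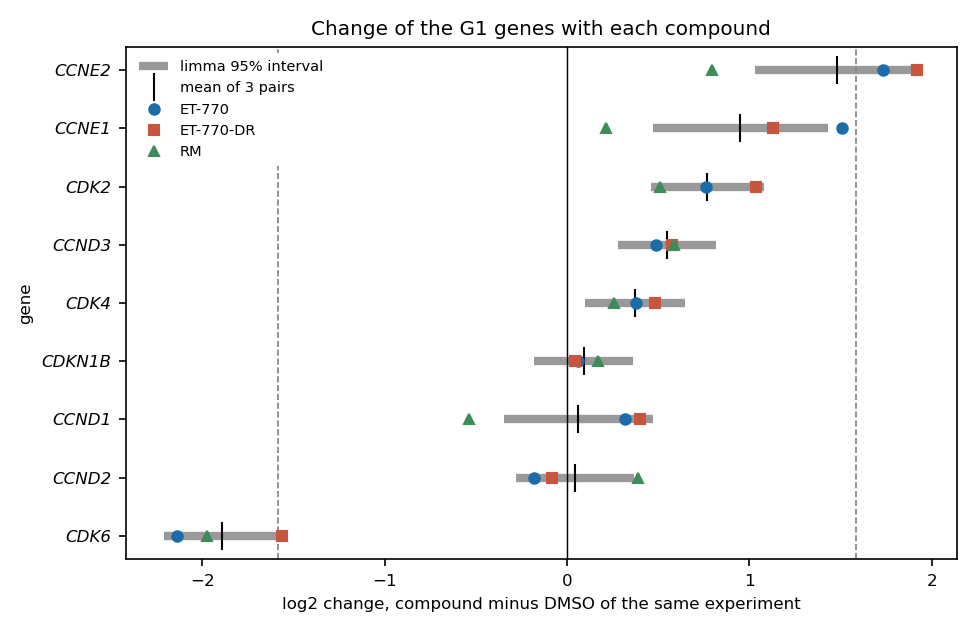
Log2 change of each of the 9 G1 genes, compound minus DMSO within an experiment; each symbol is 1 compound, the black tick the mean of the 3 pairs, the grey bar the 95% interval from limma and the dashed lines a 3-fold change up and down. CDK6 lies between -2.14 and -1.56, and CCNE2 between 0.79 and 1.92.

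The inhibitor CDKN1B did not pass the test, and its folds were the nearest to 1 of the genes higher in every pair. Its log2 signal was 9.99 for ET-770, 9.46 for ET-770-DR and 9.49 for RM, against 9.92, 9.41 and 9.32 in the DMSO cells of the same experiments. The folds were 1.04, 1.03 and 1.12. The shared change was 0.09 (standard error 0.12, limma adjusted p = 0.71), with a 95% interval of -0.18 to 0.36.

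The doses of the compounds differed, and each compound was on 1 array, so their values stand side by side with no comparison of the compounds. None of the differences between ET-770, its derivative ET-770-DR and RM has a replicate check. The DMSO arrays also differed between experiments, and how much of this lies in the cells and how much in the scale of the arrays was not tested. The 9 genes spanned 0.60 to 2.05 log2 units over the 3 DMSO arrays, and 0.20 to 1.67 after quantile normalization, where the median gene spanned 0.92 and 0.52.

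Around these genes, the lists of the same circuit were counted in the same fit, by list and with no test of the list, beside the 13.1% of all genes that rose and the 11.2% that fell. These lists were chosen with earlier results of these data known. Without the block for the experiment, 1 gene of the phosphatases and kinases that set CDK activity rose and 0 genes of any other list did, while 1 of the CDK-activating kinase, 3 of the other cyclins and CDKs and 0 of the remaining lists fell. Of all 18417 genes, 26 rose and 369 fell in that fit. The CDK-activating kinase, which phosphorylates CDK2, CDK4 and CDK6, has 3 subunits, of which 1 fell and 0 rose. The one that fell was MNAT1, its assembly factor, at 0.274-fold under ET-770, 0.425-fold under ET-770-DR and 0.341-fold under RM (shared change -1.55, standard error 0.15, limma adjusted p = 8.4e-05). The kinase CDK7 had a shared change of 0.40 and its cyclin CCNH one of 0.33, neither past the test. Without the RM experiment both of these passed, in a fit where 3506 of all 18417 genes rose. CDK7 and CCNH were named after their values were seen.

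Of 6 other CDK inhibitors, 1 rose and 0 fell. This was CDKN1A, also called p21, which p53 induces, at 2.06-fold under ET-770, 2.41-fold under ET-770-DR and 1.85-fold under RM (shared change 1.07, standard error 0.13, limma adjusted p = 0.00036). The shared changes of the other 5 ran from -0.07 to 0.20, so that of the 7 inhibitors measured CDKN1A alone was called. Among those not called, CDKN2A and CDKN2B, named after their values were seen, were dim. CDKN2A lay below the array median on every array, and CDKN2B on every array except that of RM. Whether their probes stood above background was not tested. Of 11 components of the ubiquitin ligases that degrade G1 regulators, 1 fell and 0 rose. AMBRA1, which directs the degradation of D-type cyclins, was at 0.470-fold, 0.574-fold and 0.640-fold under ET-770, ET-770-DR and RM (shared change -0.84, standard error 0.13, limma adjusted p = 0.0015). Of 3 FOXO factors, which activate CDKN1B in other cells, FOXO4 rose with a shared change of 0.45 (limma adjusted p = 0.038). This call was lost without the ET-770 or the RM experiment, with array medians made equal and without the block.

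Of 13 genes of the RB family and E2F factors, 5 rose and 3 fell. E2F2, an activating E2F, was at 3.82-fold under ET-770, 3.24-fold under ET-770-DR and 1.58-fold under RM (shared change 1.43, standard error 0.22, limma adjusted p = 0.0012). E2F8, a repressing E2F, was at 2.90-fold, 3.51-fold and 1.62-fold (shared change 1.35, standard error 0.19). The 3 that fell, named after their values were seen, were RB1, its relative RBL2 and TFDP2, a partner of the E2F proteins, with shared changes of -1.21, -0.67 and -0.65. Of 14 S-phase genes that E2F is known to raise, 8 rose and 1 fell, where 13.1% and 11.2% of all genes did. The number that rose was 7 without the ET-770 or the ET-770-DR experiment, 12 without the RM experiment and 0 without the block. Of all 18417 genes, 1200, 1581, 3506 and 26 rose in those fits, in the same order. CDT1, which licenses replication origins, was at 2.93-fold, 3.78-fold and 2.01-fold under ET-770, ET-770-DR and RM (shared change 1.49, standard error 0.17, limma adjusted p = 0.00026), and CDC6, its partner in licensing, at 3.52-fold, 2.88-fold and 1.77-fold. The gene that fell, also named after its value was seen, was POLA1, a subunit of DNA polymerase alpha, with a shared change of -0.64. The median shared change was 0.60 over the 14 genes and 0.24 over the 13.

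Of 5 phosphatases and kinases that set the activity of CDKs, 3 rose and 0 fell, and 2 rose without the ET-770 or the ET-770-DR experiment. CDC25A, the phosphatase that activates CDK2, was at 3.72-fold under ET-770, 4.38-fold under ET-770-DR and 1.83-fold under RM (shared change 1.63, standard error 0.21, limma adjusted p = 0.00054). PKMYT1, a kinase that inhibits CDK1, was at 2.55-fold, 2.04-fold and 1.72-fold (shared change 1.05). WEE1, named after its value was seen, inhibits CDK1 and CDK2 and had a shared change of 0.46 (limma adjusted p = 0.021). Of 6 later cyclins and kinases, 1 rose and 0 fell. It was CDK1, the mitotic kinase, with a shared change of 0.42 (limma adjusted p = 0.035), and the call was lost without the ET-770 or the ET-770-DR experiment, after quantile normalization, with array medians made equal and without the block. Named after their values were seen, the S-phase cyclin CCNA2 had a shared change of 0.09 (adjusted p = 0.72) and the mitotic cyclin CCNB1 one of -0.12 (adjusted p = 0.60).

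Of 21 other cyclins and CDKs, 6 rose and 4 fell. The number that rose was 2 when the ET-770 experiment was left out, 3 when the ET-770-DR experiment was and 7 when the RM experiment was. Of all 18417 genes, 1200, 1581 and 3506 rose in those fits. CDK14, a relative of CDK5 that binds cyclin Y, was at 0.108-fold under ET-770, 0.154-fold under ET-770-DR and 0.158-fold under RM (shared change -2.86, standard error 0.14, limma adjusted p = 6.2e-06). CDK19, a kinase of the Mediator complex, was at 0.122-fold, 0.106-fold and 0.238-fold (shared change -2.78, standard error 0.20). The other 2 that fell, named after their values were seen, were CCNY, the cyclin of CDK14, with a shared change of -1.69, and CDK13 with -0.44. Over the 82 genes of these lists together, 25 rose and 10 fell, where 13.1% and 11.2% of all genes did.

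**Figure D3:**
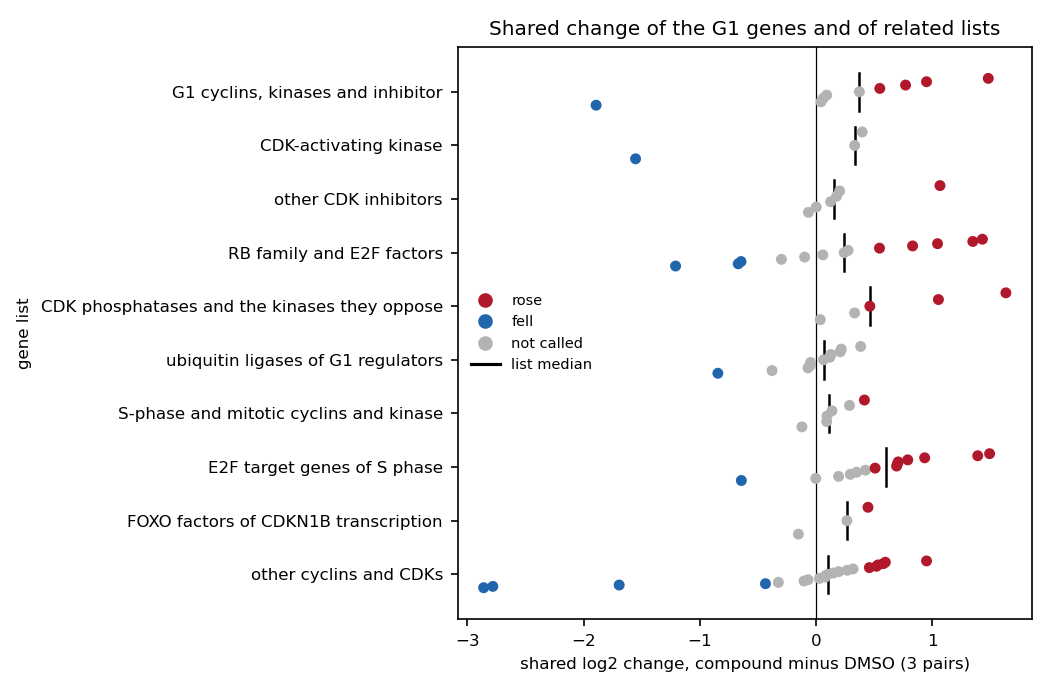
Shared log2 change, the mean of 3 pairs, of the 9 G1 genes and of the genes of 9 related lists; each point is 1 gene, red for a rise and blue for a fall past an adjusted p of 0.05 from limma, grey for neither, and the black tick is the median of the list. The S-phase genes have a median of 0.60, and CDK6, MNAT1, CCNY, CDK14 and CDK19 lie below -1.5.

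**Figure D4:**
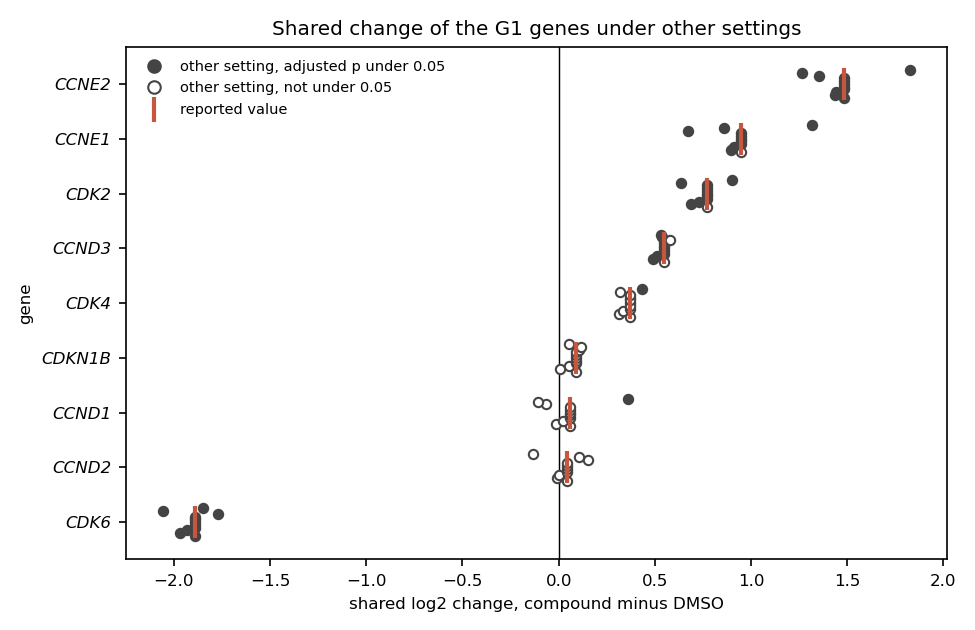
Shared log2 change of the 9 G1 genes under the other settings tried; each circle is 1 setting, filled where the adjusted p from limma was under 0.05, and the red tick is the reported value. Circles of a gene are spread vertically for legibility, CDK6 stays between -2.06 and -1.77 and CCNE2 between 1.26 and 1.83.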

How the data were processed

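Total RNA of 6 samples of U373MG cells was hybridised to Human Gene 1.0 ST arrays, 1 array per sample. The authors computed the deposited log2 signals by RMA in Affymetrix Expression Console. The software version, annotation and genome build are not given in the sources used here, and whether the experiments were normalised together was not established. Of 33297 probes, 19460 carry 1 gene symbol and were used, averaged per gene on the log2 scale (18417 genes). Probes with several symbols (1754) or none (12083) were left out. After group means were removed, correlation between the compound and DMSO array was 0.83, 0.69 and 0.82 within experiments and no higher than 0.24 between them. Removing the means makes the deviations of a group cancel, so high values within experiments by themselves force lower ones between them. The labels name the compound each DMSO array is the control for.

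Shared changes were fitted with limma 3.58.1 in R 4.3.3 (treatment and experiment as terms, eBayes without trend, Benjamini-Hochberg adjustment over all genes). The fit was tested on simulated data. Changes of more than 3-fold in either direction, the threshold of the study, were counted with no test. The number of arrays limits the precision. Tables and plots were made in Python 3.11.15 (pandas 2.3.3, numpy 2.4.6, matplotlib 3.10.9). Alternatives were no block, quantile normalization, equal array medians, other probe choices, other eBayes settings, a filter on dim genes, leaving out an experiment and the mean DMSO control. The members and gene lists were chosen with earlier results of these data known. Genes named are the members, the 2 largest called changes of each list, the 3 nearest genes to the largest rise and fall, and others named as chosen after their values were seen. Assays other than the arrays are not analysed here.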

Additional observations from a re-analysis of the deposited data

Results flagged for a closer look

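CCND1 is given here because its changes had opposite signs between compounds. Its log2 change was -0.54 with RM, against 0.32 for ET-770 and 0.40 for ET-770-DR, each as compound minus DMSO within an experiment. CCND2 is given for the same reason, with a change of 0.39 with RM, against -0.18 for ET-770 and -0.08 for ET-770-DR. The CCND2 signal lay below the array median on all 6 arrays, and whether it stood above background was not tested. Each value rests on 1 array per arm, and the differences were not tested. No group held enough arrays for a search for single outlying arrays.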

How the results depend on the processing

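CDK6 and CCNE2 passed the test in limma under all 11 alternatives, with adjusted p at most 0.0031 and 0.048. Both kept their direction with quantile normalization, equal array medians or an experiment left out. The other alternatives could not change the direction of these genes, because their estimates stayed the same and only the p-values could move. Without the block for the experiment, 1 of the 9 genes rose instead of 4, and CCND3, CCNE1 and CDK2 did not pass (adjusted p = 1, 0.49 and 0.81, n = 3 against 3). Over all genes, 26 rose and 369 fell in that fit, against 2406 and 2065. With 1 experiment left out at a time, 1 of the 9 genes fell. Those that rose were 3 without the ET-770 experiment, 4 without the ET-770-DR experiment and 6 without the RM experiment. The counts over all genes in these fits are given below. CCND3 did not pass without the ET-770 experiment (adjusted p = 0.079). CDK4 passed under 3 of the 11 alternatives, namely with eBayes with trend, without the dimmest 25% of genes and without the RM experiment. CCND1 had a shared log2 change of -0.012 after quantile normalization, -0.068 without the ET-770 experiment, -0.11 without the ET-770-DR experiment and 0.36 without the RM experiment. CCND2 had -0.010 after quantile normalization and from -0.13 to 0.15 with 1 experiment left out, and it was not among the genes kept by the filter on dim genes. Set against the mean over all DMSO arrays, 2 genes were over 3-fold for ET-770, 0 were over and 1 was more than 3-fold lower for ET-770-DR. After quantile normalization 1 gene was more than 3-fold lower for ET-770-DR. The share of all genes past 3-fold was not counted under the mean control or after quantile normalization. These counts therefore cannot be read as particular to the members. At thresholds of 2 and 0.5, 2 genes were over with ET-770, 3 over and 1 under with ET-770-DR. The cause of these differences was not tested. Over all genes, 1200 rose and 1505 fell without the ET-770 experiment, and 1581 and 1871 without the ET-770-DR experiment. Without the RM experiment 3506 rose and 2635 fell, which is more than the 2406 and 2065 of the full fit.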
